A study of Arabidopsis thaliana with 4 samples.

Results

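Indole glucosinolates are sulfur-containing defence compounds that *Arabidopsis* makes from tryptophan. The cytochrome P450s CYP79B2 (AT4G39950) and CYP79B3 (AT2G22330) convert tryptophan to an aldoxime, and CYP83B1 (AT4G31500) oxidises it. The C-S lyase SUR1 (AT2G20610) releases the thiol, the glucosyltransferase UGT74B1 (AT1G24100) adds the sugar, and the sulfotransferases SOT16 (AT1G74100), SOT17 (AT1G18590) and SOT18 (AT1G74090) add sulfate. MYB34 (AT5G60890) and MYB51 (AT1G18570) are R2R3-type transcription factors that activate genes of indole glucosinolate synthesis. MYC2 is a bHLH factor of the jasmonate response that acts with such MYB factors. The loops of these 10 genes, 8 enzymes and 2 regulators, were compared between the *myc2* mutant and wild-type Col-0. A loop belonged to a gene when at least 1 of its anchors overlapped the region from 1 kb upstream of the transcription start site (TSS) to the transcription termination site (TTS). All 10 genes had such loops, as did 17797 of all 27444 protein-coding genes. Together they took part in 57 of 32312 loops in *myc2* and in 73 of 36723 loops in Col-0.

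The assay was ChIA-PET, which sequences paired-end tags of interacting chromatin, with an antibody against H3K4me3, a histone mark of active genes. It joins the ends of chromatin fragments that lie close together and carry the mark, so that each paired-end tag (PET) between a pair of anchors counts as 1 contact. The shoots came from 2-week-old seedlings of *myc2* and of Col-0, untreated apart from the fixation, with 2 replicates of each genotype. The allele is not given in the labels. The replicates were combined by the authors before loops were called, so 1 list per genotype was available, no replicate error could be given and no difference between genotypes was tested. Whole shoots hold many cell types, and fewer cells with a contact cannot be told apart from a contact that is rarer in every cell.

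The *myc2* list held 297390 PETs, against 745505 PETs in the Col-0 list. Listed loops had at least 5 PETs in *myc2* and at least 10 PETs in Col-0, so a loop that was not listed may still have held up to 4 PETs in *myc2* or up to 9 in Col-0. Over all anchors listed in both genotypes the median tag ratio, *myc2* over Col-0, was 0.775, and over all loops listed in both the PET ratio was 0.432. At the anchor over most of the targeted gene, MYC2 (AT1G32640), 1423 tags were counted in *myc2* and 3562 in Col-0, a ratio of 0.399 with a 95% counting interval of 0.375 to 0.425. The other MYC2 anchor held 1731 tags in *myc2* and 2479 in Col-0, a ratio of 0.698 (0.656 to 0.743). Of the photosynthesis genes taken as shoot markers, 5 of 6 had an anchor, and of the root markers 0 of 5 had one. Of all 27444 protein-coding genes 17797 had one. Intervals below cover counting error only.

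CYP79B2 and CYP79B3 are paralogs for the same step, and the CYP79B2 anchor and the second CYP79B3 anchor sat at matching places. The CYP79B2 anchor (TAIR10 coordinates chr4:18526626-18527339) began 1584 bp after the TSS, and the second CYP79B3 anchor (chr2:9490325-9491092) began 1912 bp after it. Each covered 633 coding bases and 26 intron bases, with the remainder in the 3′ end of the transcript. Each held the letters CACGTG 2 times. This G-box is the sequence that MYC2 is known to bind, and all 4 matches lay in coding sequence. The windows around them are shown because they let the paralogs be compared base by base. They are on the plus strand, 5′ to 3′, read from the TAIR10.1 genome, with the G-box in capitals.
CYP79B2, chr4:18526850-18526909: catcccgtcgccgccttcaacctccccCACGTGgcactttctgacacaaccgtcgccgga
CYP79B3, chr2:9490549-9490608: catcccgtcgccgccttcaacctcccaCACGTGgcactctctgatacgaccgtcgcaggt
CYP79B2, chr4:18527151-18527210: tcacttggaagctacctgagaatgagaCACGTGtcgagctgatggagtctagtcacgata
CYP79B3, chr2:9490850-9490909: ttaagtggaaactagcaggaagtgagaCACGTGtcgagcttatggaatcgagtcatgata
The first pair of windows was identical at 54 of 60 bases and the second pair at 47 of 60. The first CYP79B3 anchor, which began 297 bp after the TSS, had no CYP79B2 anchor to match it. It also held CACGTG, at 497 and 528 bp after the TSS, and those windows are not shown.

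Promoters were searched on both strands for CACGTG and for the related CACATG. In the 250 bases before the TSS, CACGTG was found only in SUR1, at position -50, among the 10 genes, against 6.49% of all 27444 protein-coding genes. CACATG was found only in MYB51, at position -98, against 11.1% of all genes. Both promoters are shown from position -150 to -1 in the direction of the gene, with the match in capitals, and CACATG appears in MYB51 as its reverse complement.
SUR1, chr2:8880441-8880590, minus strand: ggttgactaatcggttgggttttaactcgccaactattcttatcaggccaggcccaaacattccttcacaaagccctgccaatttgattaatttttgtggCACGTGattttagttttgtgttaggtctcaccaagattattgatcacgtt
MYB51, chr1:6389249-6389398, plus strand: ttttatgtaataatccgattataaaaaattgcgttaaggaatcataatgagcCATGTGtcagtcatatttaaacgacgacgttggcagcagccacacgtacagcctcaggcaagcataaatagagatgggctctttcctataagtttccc
Within the anchors of the 10 genes, CACGTG occurred in 4 of 12, against 12% of all 15694 anchors, which differ in length. The 12 anchors held 7 matches in 14931 bp, where all anchors held 0.149 per kb. These 4 were the CYP79B2 anchor, both CYP79B3 anchors and the anchor that SOT16 shares with SOT18. CACATG occurred in 2 of the 12, against 24.1% of all anchors. In the 1000 bases before the TSS, CACGTG was found in 1 of the 10 genes, against 14.8% of all genes, and CACATG in 4 of the 10, against 37.7%. A match of letters is a description and not a binding site.

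Of the 73 Col-0 loops of the 10 genes, 31 were not listed in *myc2*, a share of 42.5% with an exact Clopper-Pearson interval of 31.0% to 54.6%. Over all Col-0 loops that share was 32.2%. In Col-0 the loops of these genes had a median of 14 PETs, against 16 over all Col-0 loops, and loops with few PETs were the ones most often absent from the *myc2* list. Of all Col-0 loops, 65.1% of those with 10 or 11 PETs were not listed in *myc2*, and 0.114% of those with at least 40. At the shares of their own PET classes, 27.5 of the 73 loops would not be listed, which is 37.7% and within the interval. The interval takes the loops as independent, though they share the 12 anchors of these genes, so it may be too narrow. It is no test. With at least 10 PETs asked of both lists, the share was 76.7% for these genes and 72.3% over all Col-0 loops.

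Of the 57 *myc2* loops, 15 were not listed in Col-0, which is 26.3% (15.5% to 39.7%) beside 23% over all *myc2* loops. These 15 held 5 to 9 PETs in *myc2* and may have held up to 9 in Col-0, so higher raw counts in *myc2* cannot be shown. Raw counts are not scaled for depth. A loop with 5 PETs in *myc2* and 9 in Col-0 would have a ratio of 0.556, above the 0.432 over all shared loops. A gain relative to depth was not tested at these few PETs. The 42 loops listed in both held 429 PETs in *myc2* and 916 in Col-0, a ratio of 0.468 (0.417 to 0.526) beside 0.432 over all shared loops. This ratio was not matched for PET class, and weak Col-0 loops are shared only where *myc2* held at least 5 PETs. The median ratio of all shared loops was 0.6 at 10 or 11 PETs in Col-0, 0.5 at 12 to 14 and 0.388 at 40 or more. Past 1.5-fold of the median ratio of all shared loops lay 3 of the 42 on the low side, where 12% of all shared loops lay, and 7 on the high side, where 11% lay. The 3 low loops were MYB51 to the neighbouring genes AT1G18550 and AT1G18560, UGT74B1 to AT1G24130 and AT1G24140, and SOT17 to AT1G18610. Among the 7 high loops were CYP83B1 to HCF153 from its upstream anchor, SUR1 to NFD6, UGT74B1 to LGT9 and SOT17 to MYB51. The rest joined the anchor of SOT16 and SOT18 to SPPA, to AT1G74050 and AT1G74055, and to TRM4. The loops ran over 2.51 to 45.9 kb within the chromosome, with a median span of 10.7 kb in *myc2* and 12.5 kb in Col-0.

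**Figure D1:**
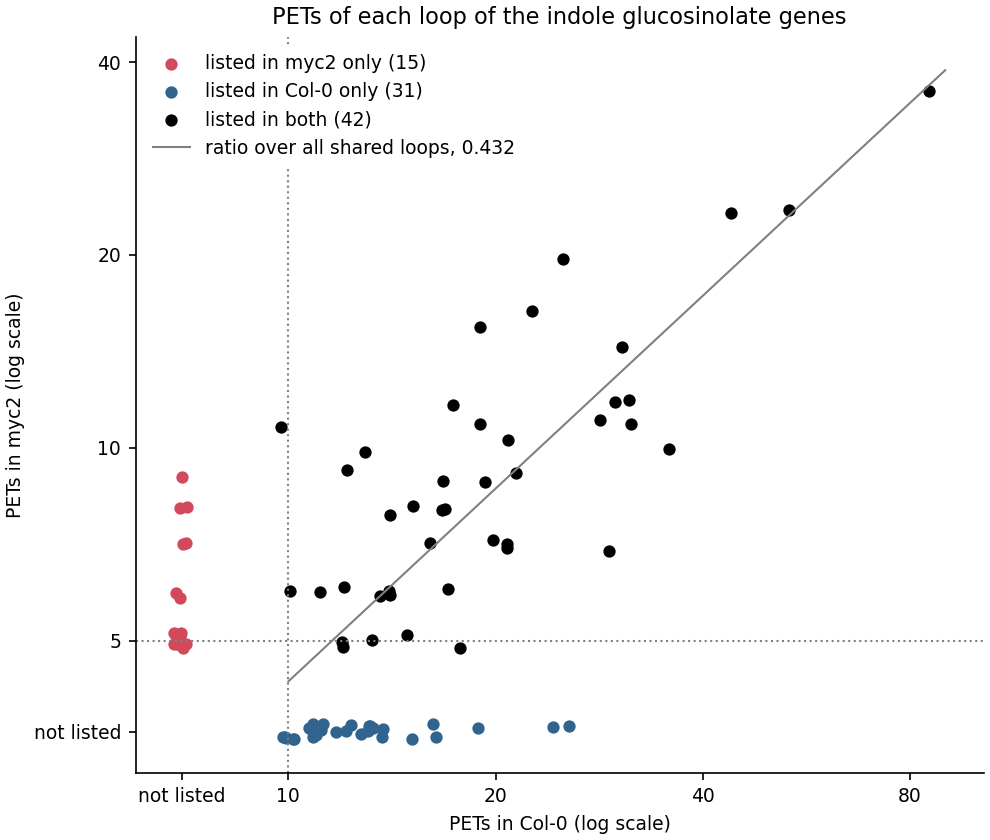
PETs of each loop of the 10 genes in *myc2* (y axis) and Col-0 (x axis), both on log scales. Dotted lines mark the list minimum of 5 PETs in *myc2* and 10 in Col-0, loops absent from a list stand outside these lines, and points are shifted slightly to keep them apart. The 31 loops listed in Col-0 only lie mostly near 10 PETs, and 2 of them have more than 20.

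The genes that commit tryptophan to the pathway differed in their loops. CYP79B2 had 1 loop with 6 PETs (2.20 to 13.1, exact Poisson interval) in *myc2*, against 7 loops with 87 PETs (69.7 to 107) in Col-0. The loop that both genotypes listed led to AT4G39960, with 6 PETs in *myc2* and 10 in Col-0. The 6 loops that were not listed in *myc2* led upstream to POR, a tubulin-folding cofactor, with 19 PETs in Col-0. They also led to separate anchors over the APS kinase gene AKN2 and AT4G39930, with 11 and 12 PETs. The anchor with 11 PETs overlapped AT4G39925 as well. Downstream they led to AT4G39955 with 12 PETs, and to DHS1 with 10 and 13 PETs. The anchor with 10 PETs was shared by DHS1 and AT4G39970, so that loop can be read as one to either gene. AKN2 makes the activated sulfate that sulfotransferases use, and DHS1 encodes the first enzyme of the shikimate pathway, which leads to tryptophan.

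CYP79B2 thus had 1 connecting gene in *myc2* and 8 in Col-0, where a connecting gene is any gene joined to it by a loop. Of the 10 genes, CYP79B2 and SOT17 had at least 3 fewer connecting genes in *myc2*, a change found in 17.4% of all 17797 genes with an anchor. Hubs, genes with at least 5 connecting genes, were put in classes of change with the study's formulas. Every gene that an anchor touched was counted here, so the hubs differ from those of the study, which assigned anchors to genes in a stricter way. CYP79B2 was in the class named entirely disassembled, which held 1.66% of all 12866 hubs. The loops at CYP79B2 were weak in Col-0, and 3.74 of its 7 loops would not be listed at the shares of their PET classes. If every loop that was not listed had held 4 PETs, the PET ratio over its Col-0 loops would be at most 0.345, and 17.8% of 13638 genes with at least 50 PETs in Col-0 had an upper bound as low or lower. With only Col-0 loops of at least 13 PETs, a minimum set from the PET ratio of the strongest loops, CYP79B2 had 1 connecting gene in *myc2* and 2 in Col-0. From its promoter alone, up to 0.5 kb after the TSS, it had 0 in *myc2* and 0 in Col-0, since its anchor lies further into the gene.

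The anchor of CYP79B2 and the loops around it were largely listed in both genotypes. It held 699 tags in *myc2* and 846 in Col-0, a ratio of 0.826 (0.746 to 0.914), above the median of all anchors. Its 7 partner anchors had tag ratios between 0.741 and 0.928. Among loops that joined these partner anchors to one another and did not touch CYP79B2, 2 of 10 Col-0 loops were not listed in *myc2*. At the shares of their PET classes 3.50 would not be listed. The shared ones had a PET ratio of 0.442 (0.331 to 0.586). The anchor also overlapped the upstream region of AT4G39952, so the same loops can be read as loops of that gene.

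CYP79B3 had 5 loops with 32 PETs in *myc2* and 7 loops with 89 PETs in Col-0. Of the 7 Col-0 loops, 3 were not listed in *myc2*, where 3.53 would not be at the shares of their PET classes. CYP79B3 had 7 connecting genes in *myc2* and 6 in Col-0, and with 10 PETs asked of both lists 0 in *myc2* and 6 in Col-0. At that setting 73.5% of all genes with an anchor had at least 3 fewer. With only Col-0 loops of at least 13 PETs, CYP79B3 had 7 in *myc2* and 4 in Col-0. Loops listed in both led to SR1, a calmodulin-binding transcription factor also called CAMTA3, with 6 PETs in *myc2* and 11 in Col-0, and to AT2G22340 and AT2G22345, with 8 PETs in *myc2* and 15 in Col-0. Those further downstream led to AT2G22360, with 5 in *myc2* and 12 in Col-0, and to AT2G22370, with 8 in *myc2* and 14 in Col-0. The loop to the ubiquitin protease gene UBP4 was not listed in *myc2* and had 16 PETs in Col-0. A loop of 36.3 kb to the homeobox gene HB6 was listed in *myc2* only, with 5 PETs. A first anchor near the 5′ end of CYP79B3 (chr2:9488710-9489523) held 0 loops in *myc2* and 1 loop in Col-0, to SR1 with 10 PETs. Among all Col-0 anchors 4.22% had no loop in *myc2*.

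**Figure D2:**
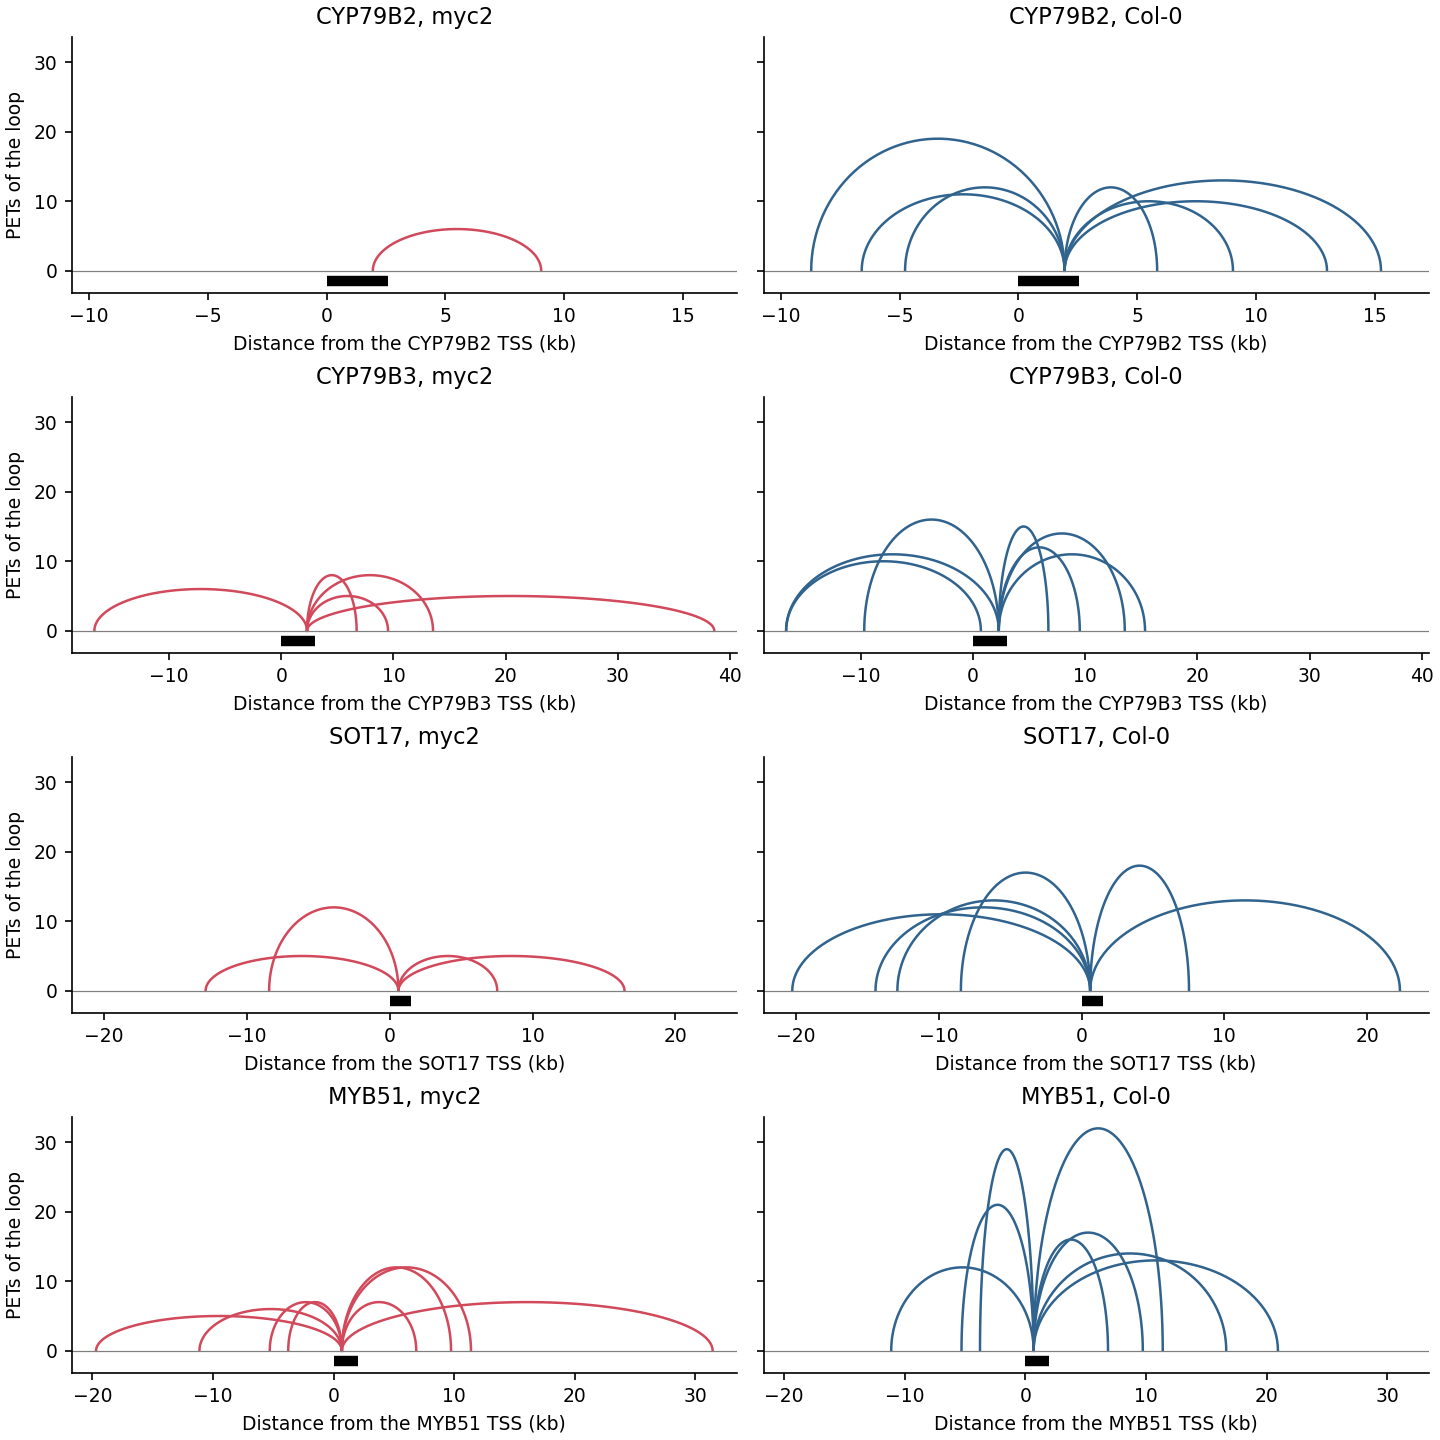
Loops of CYP79B2, CYP79B3, SOT17 and MYB51, with *myc2* on the left and Col-0 on the right. The x axis is the distance from the TSS in kb in the direction of transcription, the height of an arc is its number of PETs and the black bar is the gene. CYP79B2 has 1 arc in *myc2* and 7 in Col-0, and MYB51 has 8 in each.

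At CYP83B1, which oxidises the aldoxime, 9 loops with 91 PETs were listed in *myc2* and 14 loops with 242 PETs in Col-0. It had 2 anchors, 1 over the gene (chr4:15273625-15275324) and 1 upstream (chr4:15276386-15277575). The strongest loop of the gene-body anchor, 4.27 kb long, led to AT4G31510 and AT4G31520 and had 23 PETs in *myc2* and 45 in Col-0. Its 21.04 kb loop to HCF153, a gene for cytochrome complex assembly, was not listed in *myc2* and had 24 PETs in Col-0. Of all Col-0 loops with 20 to 29 PETs, 10.5% were not listed in *myc2*.

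The upstream anchor of CYP83B1 showed a different pattern towards the same partners. Its loop to HCF153 was listed in both genotypes, with 10 PETs in *myc2* and 13 in Col-0. WRKY11, a defence regulator, was listed with the upstream anchor in *myc2* only, with 8 PETs, and with the gene-body anchor in Col-0 only, with 13 PETs. In raw counts, unscaled for depth, the 8 PETs are under the Col-0 minimum of 10. Of all Col-0 loops with 12 to 14 PETs, 49.5% were not listed in *myc2*. Both partners were among the connecting genes of both lists, of which CYP83B1 had 9 in *myc2* and 11 in Col-0. The upstream anchor ended at position -982, just within the gene's 1 kb upstream region, and lay over AT4G31510. With at least 50% of an anchor asked to lie in the region, CYP83B1 had 6 connecting genes in *myc2* and 9 in Col-0. With only Col-0 loops of at least 13 PETs, CYP83B1 had 9 in *myc2* and 8 in Col-0. The loop between its own anchors had 6 PETs in *myc2* and 14 in Col-0. Of the Col-0 loops of CYP83B1 7 of 14 were not listed in *myc2*, where 5.95 would not be at the shares of their PET classes. Among loops of its partner anchors that did not touch CYP83B1, 1 of 21 was not listed, where 3.74 would not be at the shares of their PET classes.

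The later enzymes SUR1 and UGT74B1 each had 2 Col-0 loops that *myc2* did not list. At the shares of their PET classes, 1.70 of 6 would not be listed for SUR1 and 1.68 of 9 for UGT74B1. SUR1 had 5 loops with 53 PETs in *myc2* and 6 loops with 120 PETs in Col-0. Its loop to NFD6 had 20 PETs in *myc2* and 25 in Col-0, while its loops to separate anchors at AT2G20590 had 11 and 9 in *myc2* and 32 and 19 in Col-0. GPRI1, the chloroplast regulator also called GLK1, was joined by 6 PETs in *myc2* and 14 in Col-0. A loop of 7 PETs to AT2G20650 was listed in *myc2* only. The loops to the proteasome subunit gene RPN1A and to the phosphatase gene PIA1 were not listed in *myc2*, and had 16 and 14 PETs in Col-0. The G-box in the SUR1 promoter lay just outside its anchor, which began 19 bp before the TSS.

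UGT74B1 had 9 loops in each genotype, with 92 PETs in *myc2* and 221 in Col-0. Its strongest loop, to ARL1, had 24 PETs in *myc2* and 52 in Col-0. The loop to AT1G24130 and AT1G24140 had 10 in *myc2* and 36 in Col-0, and that to AT1G24160 was not listed in *myc2* and had 25 in Col-0. The next anchor out, over AT1G24160 and the glycosyltransferase gene LGT9, was joined by 15 PETs in *myc2* and 19 in Col-0. UGT74B1 had the most tags per kb of anchor among these genes in both genotypes, 1533 in *myc2* and 2031 in Col-0, and had 12 connecting genes in *myc2* and 13 in Col-0.

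The sulfotransferases catalyse the last step of the core pathway. SOT16 and SOT18 lie next to each other and shared 1 anchor (chr1:27862819-27865737, 2919 bp), so their loops cannot be told apart. This anchor had 10 loops with 122 PETs in *myc2* and 8 loops with 224 PETs in Col-0. All 8 Col-0 loops were listed in *myc2*, where 1.86 would not be listed at the shares of their PET classes. The strongest loop of the 10 genes joined it to AT1G74060 and AT1G74070, with 37 PETs in *myc2* and 85 in Col-0. The 39.95 kb loop to the thylakoid protease gene SPPA had 11 PETs in *myc2* and 10 in Col-0, and it was the only loop of the 10 genes listed in both with more PETs in *myc2*. The loop to ENO1 and to IMS1, an isopropylmalate synthase gene of leucine synthesis, had 6 PETs in *myc2* and 17 in Col-0.

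Loops from the SOT16 and SOT18 anchor to RLP13, with 5 PETs, and to RLP16 and GDPD5, with 6 PETs, were listed in *myc2* only. Both genes had 15 connecting genes in *myc2* and 12 in Col-0, and were the 2 of 10 with at least 3 more, a change found in 7.57% of all genes with an anchor. With 1 shared anchor this is 1 observation. With 10 PETs asked of both lists the direction turned, with 9 connecting genes in *myc2* and 12 in Col-0. At that setting 73.5% of all genes with an anchor had at least 3 fewer and 0% at least 3 more. With only Col-0 loops of at least 13 PETs, both genes had 15 in *myc2* and 9 in Col-0. At least 3 more were then found for 23.5% of all genes with an anchor. With at least 50% of the anchor asked to lie in a gene's region, both genes had 0 connecting genes in either genotype. The PET ratio over the shared loops was 0.496 (0.391 to 0.625), against 0.376 (0.298 to 0.473) over shared loops among its partner anchors, and these intervals overlap.

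SOT17 is the third gene of the family and lies near MYB51 on chromosome 1, with GAUT11 between them. It had 4 loops with 27 PETs in *myc2* and 6 loops with 84 PETs in Col-0. Of the 6 Col-0 loops, 3 were not listed in *myc2*, where 2.73 would not be at the shares of their PET classes. SOT17 had 5 connecting genes in *myc2* and 8 in Col-0, and was partially disassembled as a hub, a class that held 16.5% of all hubs. Its loop to AT1G18610 had 5 PETs in *myc2* and 18 in Col-0. The loop to the anchor of PSP, a phosphoserine phosphatase gene, was not listed in *myc2* and had 13 PETs in Col-0. With Col-0 loops of at least 13 PETs only, SOT17 had 5 connecting genes in *myc2* and 7 in Col-0.

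At this locus a loop ran between the anchors of an enzyme gene and a regulator gene. The loop between SOT17 and MYB51, 9.05 kb long, was the only one that linked a pair of the 10 genes, and it was listed in both genotypes with 12 PETs in *myc2* and 17 in Col-0, a ratio of 0.706. The SOT17 anchor also overlapped the region of RBL12, so the loop can be read as one to that gene. MYB51 had 8 loops with 63 PETs in *myc2* and 8 loops with 154 PETs in Col-0. Of the 8 Col-0 loops, 2 were not listed in *myc2*, where 2.30 would not be at the shares of their PET classes. The MYB51 loops to AT1G18550 and AT1G18560 had 7 and 7 PETs in *myc2*, against 29 and 21 in Col-0, and that to the rhomboid-like gene RBL12 had 12 in *myc2* and 32 in Col-0. Loops to AT1G18610 and TRM3 were not listed in *myc2* and had 14 and 13 PETs in Col-0. In *myc2* only, MYB51 was joined to PSP with 7 PETs and to MAML-4, another isopropylmalate synthase gene, with 5. The PSP anchor was thus listed with MYB51 in *myc2* only and with SOT17 in Col-0 only. In raw counts, unscaled for depth, the 7 PETs are under the Col-0 minimum of 10. Of all Col-0 loops with 12 to 14 PETs, as between PSP and SOT17, 49.5% were not listed in *myc2*. With 1 list per genotype and so few PETs, a change of partner was not tested. MYB51 had 10 connecting genes in *myc2* and 8 in Col-0.

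MYB34 had few loops in common between the genotypes. Of its 9 Col-0 loops, 6 were not listed in *myc2*, where 4.32 would not be at the shares of their PET classes, and 4 of its 7 *myc2* loops were not listed in Col-0. It had 46 PETs in *myc2* and 118 in Col-0. The loops absent from *myc2* led to OBP4, a Dof-type transcription factor gene, with 13 and 11 PETs in Col-0, to AT5G60820 with 13 and 11, to AT5G60800 with 11, and to COB, a cell expansion gene, with 15. Those listed in *myc2* only led to AGL8, the MADS-box gene also called FRUITFULL, with 9 and 5 PETs in *myc2*, to RUG3 from the second anchor with 8, and to EXO70G2 on another chromosome with 5. In raw counts, unscaled for depth, all 4 held fewer PETs than the Col-0 minimum of 10. With 10 PETs asked of both lists MYB34 had 0 connecting genes in *myc2* and 7 in Col-0. At that setting 73.5% of all genes with an anchor had at least 3 fewer. With only Col-0 loops of at least 13 PETs, MYB34 had 5 connecting genes in *myc2* and 5 in Col-0. Loops between chromosomes numbered 256 in *myc2* and 0 in Col-0. Their median of 5 PETs in *myc2* is under the Col-0 minimum in raw counts, which are not scaled for depth.

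Among loops of its partner anchors that did not touch MYB34, 6 of 14 Col-0 loops were not listed in *myc2*, where 4.76 would not be at the shares of their PET classes, and 0 were listed in *myc2* only. The loop to RLK1 was listed in both, with 9 PETs in *myc2* and 17 in Col-0. MYB34 had 5 connecting genes in *myc2* and 7 in Col-0, and counted from its promoter alone 3 in *myc2* and 6 in Col-0.

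**Figure D3:**
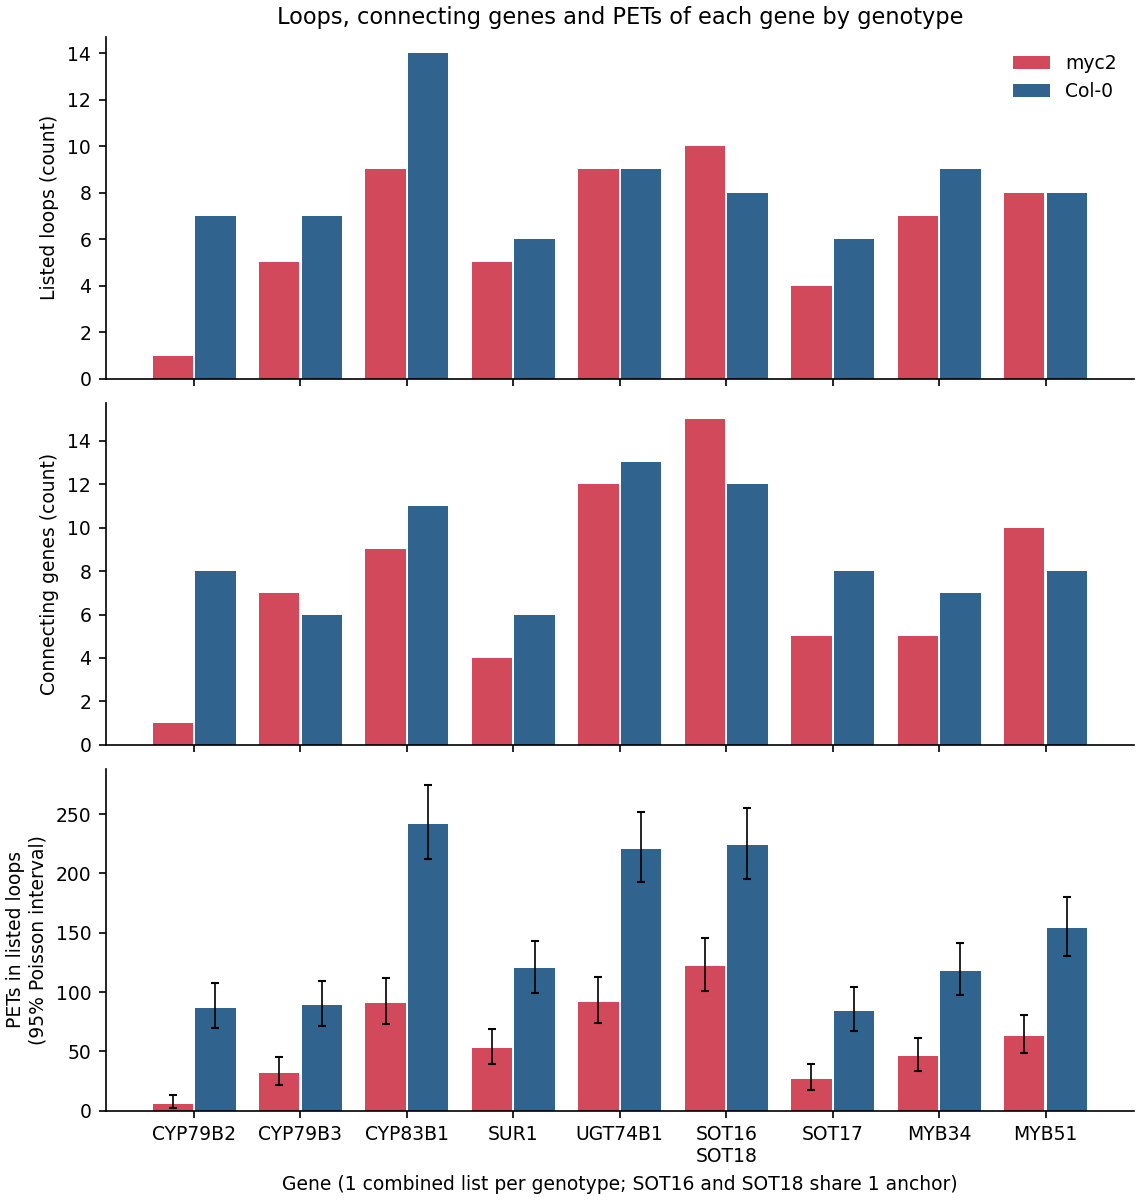
Listed loops, connecting genes and PETs of each gene, with *myc2* left of Col-0 in each pair of bars and exact 95% Poisson intervals on the PETs. SOT16 and SOT18 share 1 anchor and 1 pair of bars, which is the only pair with more loops in *myc2*, 10 against 8 in Col-0.

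Across the 10 genes, connecting genes were fewer in *myc2* for 6 and more for 4, with a median change of -1.5, beside 0 over all genes with an anchor. Hubs with at least 5 connecting genes were 8 of the 10 in *myc2* and 10 of the 10 in Col-0, where 60.8% of all genes with an anchor were hubs in *myc2* and 67.2% in Col-0. The 2 below that number in *myc2* were CYP79B2 with 1 and SUR1 with 4. In the hub classes 8 of the 10 genes were stable, as were 74.7% of all hubs, and 0 of the 10 were newly formed or increased, a class that held 7.14% of all hubs.

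**Figure D4:**
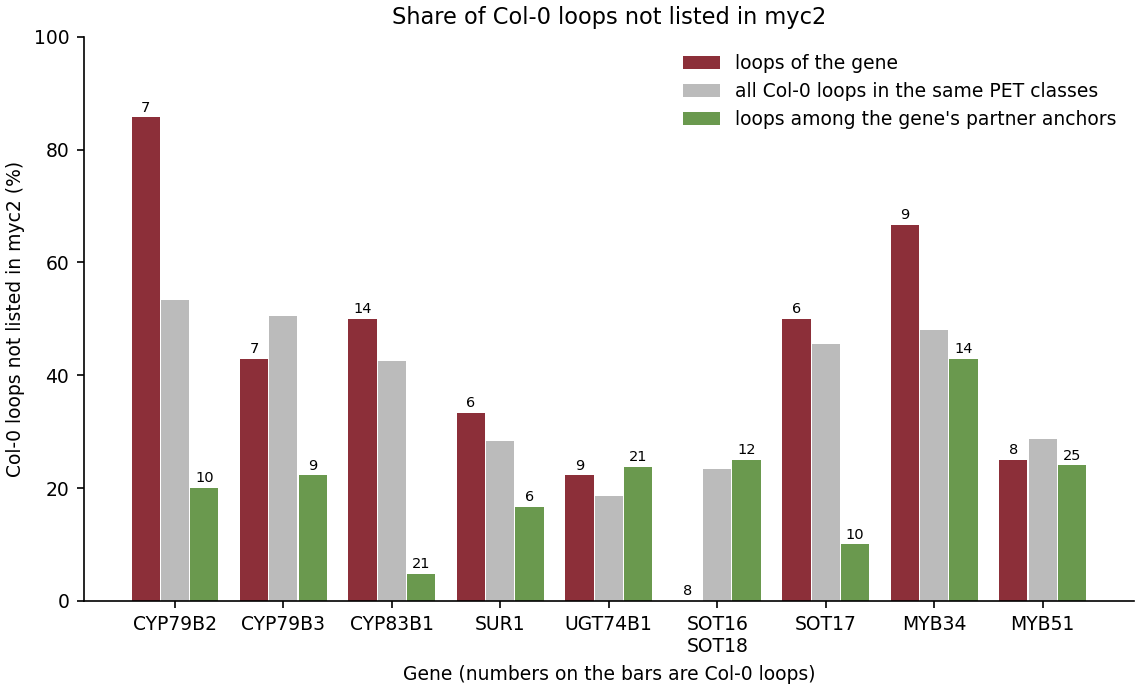
Share of each gene's Col-0 loops that was not listed in *myc2*, beside the share over all Col-0 loops in the same PET classes and beside the loops among its partner anchors. The loops among the partner anchors are not matched for PET class. Each share rests on few loops, as the numbers on the bars show, from 6 of 7 at CYP79B2 to 0 of 8 at SOT16 and SOT18.

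Tags at the anchors of these genes lay near those of all anchors in their ratio between genotypes. The 11 anchors listed in both genotypes had tag ratios of 0.706 to 0.876 with a median of 0.759, beside 0.775 over all anchors, and 6 lay below that median and 5 above it. None of the 11 lay past 1.5-fold of it, where 0.427% of all anchors lay on the low side and 0.00678% on the high side. The lowest ratio was at MYB51, with 1504 tags in *myc2* and 2130 in Col-0, and the highest at the first MYB34 anchor, with 885 in *myc2* and 1010 in Col-0. CYP79B2 and MYB34, with the largest shares of Col-0 loops not listed in *myc2*, were among the genes whose tag ratio was above the median of all anchors.

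**Figure D5:**
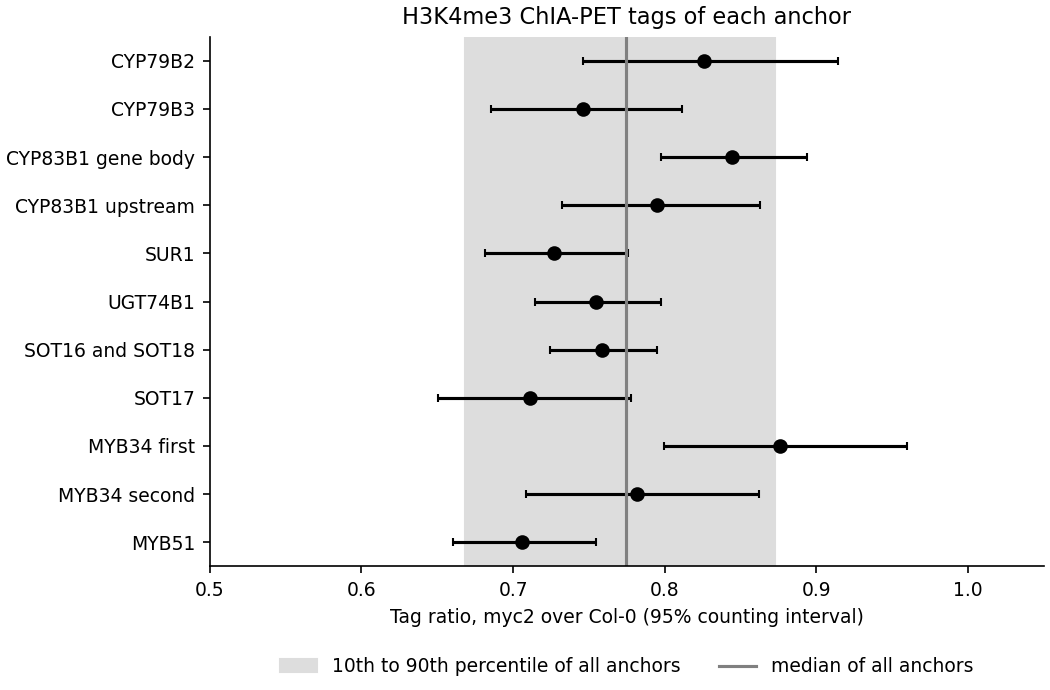
Tag ratio, *myc2* over Col-0, of the 11 anchors listed in both genotypes, with 95% counting intervals. The line is the median of all anchors, 0.775, and the shaded band runs from their 10th to their 90th percentile, 0.668 to 0.873. All points but that of the first MYB34 anchor lie within the band.

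Other genes of the pathway and its supply were described by list. Their counts with an anchor stand beside 17797 of all 27444 protein-coding genes. Of 13 further indole glucosinolate genes, 8 had an anchor, and 12 of their 44 Col-0 loops (27.3%) were not listed in *myc2*, close to the 27.1% of their PET classes. MYB122, a close relative of MYB34 and MYB51 in this pathway, had no anchor. Of 9 tryptophan synthesis genes 8 had one, and 17 of their 46 Col-0 loops (37.0%) were not listed, beside 38.4% for their PET classes. Of the 8 genes of sulfate activation and assimilation all had one, and 21 of 42 loops were not listed, which is 50% beside 43.5%. AKN2, one of these and a partner of CYP79B2, had 7 connecting genes in *myc2* and 11 in Col-0.

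The aliphatic branch, which starts from methionine, had an anchor at 12 of 26 genes, beside 17797 of all 27444 protein-coding genes. Of its 41 Col-0 loops 20 (48.8%) were not listed in *myc2*, beside 38.02% for their PET classes. Of its 12 anchors listed in both genotypes, 1 lay past 1.5-fold of the median tag ratio, on the low side, beside 0.427% of all anchors. It was at AT3G58990, an isopropylmalate isomerase subunit gene, with 334 tags in *myc2* and 698 in Col-0, a ratio of 0.479 (0.419 to 0.546). This anchor also overlapped AT3G58980 and AT3G59000, so the ratio cannot be assigned to AT3G58990 alone. At least 3 fewer connecting genes in *myc2* were counted at 1 of 8 further indole, 2 of 8 tryptophan, 2 of 8 sulfate and 2 of 12 aliphatic genes with an anchor, beside 17.4% of all genes. At least 3 more were counted at 1 of 8 further indole, 2 of 8 tryptophan, 1 of 8 sulfate and 1 of 12 aliphatic genes, beside 7.57% of all genes.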

How the data were processed

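Per the methods, the authors processed reads with ChIA-PET Tool V3 on TAIR10, took merged H3K4me3 peaks as anchors, combined both replicates and kept loops with an FDR under 0.05 and a PET number that they set by the depth of each dataset. The deposited lists give PETs per loop and tags per anchor as raw counts, unscaled. Each loop also has the authors' p-value and FDR with their −log10, used here only for a stricter filter. Genes came from the RefSeq annotation of TAIR10.1, whose chromosome lengths hold all anchors. The read aligner is not given in the sources used here.

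A loop was shared when both anchors overlapped by at least 1 bp. PET classes were 10 to 11, 12 to 14, 15 to 19, 20 to 29, 30 to 39 and at least 40 PETs in Col-0. Disassembled hubs are those with a loss of 3 or more connecting genes, entirely where it reached 0.7 of those in Col-0 and partially where it reached 0.3. Shares have exact Clopper-Pearson intervals, PETs exact Poisson intervals and ratios conditional binomial intervals, all at 95%. No p-value between genotypes was computed. Sequences and motif matches were read from the genome by coordinates.

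The genes and the pathway lists were chosen with earlier results of these data known. Named are the 10 genes, their loop partners, and list genes with an anchor past 1.5-fold of the median tag ratio. Alternatives changed the PET minimum, the FDR, the overlap and the gene region. Loop matching was tested on simulated data. Python 3.11.15, numpy 2.4.6, pandas 2.3.3, scipy 1.17.1, matplotlib 3.10.9 and bedtools 2.31.1 were used.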

Additional observations from a re-analysis of the deposited data

How the results depend on the processing

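The PET minimum was the choice that moved most values. Asking 10 PETs of both lists is equal in raw counts only, since the *myc2* list held 297390 PETs against 745505 in Col-0. It left 10344 of 32312 loops in *myc2* and all 36723 in Col-0, so fewer loops in *myc2* follow from the setting itself. With at least 10 PETs in both lists, 17 loops of the 10 genes remained in *myc2*, 76.7% of Col-0 loops were not listed in *myc2*, 0% of *myc2* loops were not listed in Col-0, and 10 genes had at least 3 fewer connecting genes in *myc2* and 0 had at least 3 more, beside 73.5% and 0% of all genes with an anchor. The change at SOT16 and SOT18 was -3 at that setting. With at least 13 PETs in Col-0 the first share was 28.6%, beside 20.6% over all Col-0 loops, with 0 genes at 3 fewer or beyond and 4 at 3 more or beyond, beside 3.03% and 23.5% of all genes. Counting a gene only where at least 50% of the anchor lay in its region gave 4 and 0 such genes, beside 15% and 4.71% of all genes, and leaving out the upstream 1 kb gave 0 with at least 3 more, beside 4.89%. Scaling PETs to the total of each list put the PET ratio of shared loops at 1.17 (1.04 to 1.32) for these genes and at 1.08 over all loops. These values were not matched for PET class either. An FDR under 0.001, which every listed loop already met, and a stricter overlap of shared loops moved 0 values. The median tag ratio moved by less than the spread between anchors under every alternative run for it.

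No paired analysis was possible because the replicates of each genotype were combined into 1 list. Leaving out a replicate was not run for the same reason. Most loops of these genes held few PETs, which limits what was seen at single genes.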
